A study of Mus musculus with 12 samples.

Results

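The genes of cholesterol and fatty acid synthesis were followed in mouse bone marrow cells that carried mutant isocitrate dehydrogenase 1 (IDH1), were exposed to its product R-2-hydroxyglutarate (R-2HG), carried wild-type IDH1, or carried an empty vector. The set comprised 34 genes: 18 enzymes of sterol synthesis, 5 regulators and sterol carriers, and 11 enzymes of fatty acid synthesis, elongation, desaturation and activation. A probe set was used where the array annotation gave exactly 1 gene symbol and that symbol was in the set. By this rule 33 of the 34 genes were measured, by 68 of the 28805 probe sets with 1 symbol, and they stood among 15858 genes in all. Acat2, the cytosolic thiolase of the first step, had no such probe set.

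Cholesterol is built from acetyl-CoA through mevalonate, isoprenoid units, squalene and lanosterol, and fatty acids are built from acetyl-CoA by carboxylation and repeated elongation. Much of this enzyme set is transcribed under SREBP transcription factors, which SCAP escorts out of the endoplasmic reticulum when sterols are low and which INSIG proteins hold back when sterols are high. In dividing marrow progenitors the pathway supplies membranes and prenyl groups. Wild-type IDH1 makes NADPH, the reductant that both synthetic branches use, whereas cancer-associated IDH1 mutants consume NADPH and release R-2HG.

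All cells descended from C57BL/6 marrow immortalised with HoxA9, a homeobox factor that keeps myeloid progenitors dividing, and all were transplanted into irradiated mice. The IDH1mut cells received a retroviral pSF91 vector with mutant IDH1 and GFP. The R-2HG group were mice carrying empty vector cells and treated over 4 weeks with R-2HG, 1 mg each day. The IDH1wt cells received the pSF91 vector with wild-type IDH1 and EGFP, and the control cells an empty EGFP vector. GFP-positive cells were sorted from the marrow at 4 weeks, and total RNA was hybridised to 12 Affymetrix arrays, 3 per group. Which IDH1 mutation was used, which promoter drives the transgene and how many mice stand behind an array is not given in the sources used here. The p-values therefore measure only the spread between these arrays, which may be technical. For the R-2HG arrays 1 label field gives the IDH1mut vector. Titles, source names and the design text give empty vector cells for the same arrays, and these were followed.

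The values are log2 values that the authors centred per probe set. They show how far an array lies from a common middle near 0 and carry no absolute level, so levels were not compared between genes, and whether marker genes of the labelled cell type are present could not be read. A gene's value is the mean of its probe sets, and a difference of 1 is a 2-fold change. Groups were compared with limma over all 15858 genes, and a gene was called at a Benjamini-Hochberg adjusted p under 0.05 (two-sided). In a bulk sample of sorted cells, fewer cells of a type and less RNA per cell cannot be told apart.

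Over all genes the difference between 2 arrays of the same group had an SD of 0.152 to 0.35, and that between arrays of different groups an SD of 0.265 to 0.528. Both ends of the first range lay in R-2HG: replicates 1 and 2 differed by 0.152, and replicate 3 differed from them by 0.341 and 0.35. R-2HG replicate 3 was nearer to some arrays of other groups, such as IDH1mut replicate 1 (0.32) and empty vector replicate 1 (0.327). It was further from others, such as empty vector replicate 2 (0.369). The mouse Idh1 probe sets, which need not detect the introduced sequence, stood between -0.19 and 0.34 on the 12 arrays, with overlapping groups. The R-2HG arrays also differed among themselves in markers of other cells. Across 9 markers of mast cells, basophils and eosinophils the median value was -2.12 and -2.34 in R-2HG replicates 1 and 2 and 0.28 in R-2HG replicate 3, against 0.14 to 0.25 in empty vector. Log2 fold changes in R-2HG are therefore also given without replicates 1 and 2.

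Promoter windows of the members are shown for 5 genes that the results below turn on and that moved in different groups. They are the 250 bases before an annotated RefSeq start (GRCm38.p6), written 5′ to 3′ on the strand of the gene. For Hmgcs1, Insig1, Msmo1 and Acss2 that start is the 5′ end of the gene as annotated, whereas the Fasn start lies 619 bases inside the annotated gene, so the Fasn window is within it. Capitals mark TCACNCCAC, a sterol regulatory element, and CCAAT, the NF-Y box, on either strand, so that a CCAAT box on the opposite strand reads ATTGG. Hmgcs1 lies at chr13:119690101-119690350 (plus strand), Insig1 at chr5:28071162-28071411 (plus strand), Msmo1 at chr8:64733579-64733828 (minus strand), Fasn at chr11:120824548-120824797 (minus strand) and Acss2 at chr2:155517793-155518042 (plus strand).
Hmgcs1: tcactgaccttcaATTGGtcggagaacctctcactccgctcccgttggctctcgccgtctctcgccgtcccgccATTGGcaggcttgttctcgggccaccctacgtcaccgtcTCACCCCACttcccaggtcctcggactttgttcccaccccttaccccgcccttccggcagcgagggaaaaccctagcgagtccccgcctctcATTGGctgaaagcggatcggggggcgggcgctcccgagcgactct
Insig1: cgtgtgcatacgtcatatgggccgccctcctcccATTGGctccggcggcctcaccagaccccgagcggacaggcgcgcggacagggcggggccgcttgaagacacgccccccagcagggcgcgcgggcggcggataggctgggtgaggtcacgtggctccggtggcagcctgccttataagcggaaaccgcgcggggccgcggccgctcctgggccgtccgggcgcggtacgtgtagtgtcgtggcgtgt
Msmo1: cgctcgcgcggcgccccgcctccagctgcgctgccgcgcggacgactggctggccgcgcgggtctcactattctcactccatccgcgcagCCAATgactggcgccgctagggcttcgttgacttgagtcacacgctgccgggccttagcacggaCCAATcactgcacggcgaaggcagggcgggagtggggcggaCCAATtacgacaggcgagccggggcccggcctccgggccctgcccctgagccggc
Fasn: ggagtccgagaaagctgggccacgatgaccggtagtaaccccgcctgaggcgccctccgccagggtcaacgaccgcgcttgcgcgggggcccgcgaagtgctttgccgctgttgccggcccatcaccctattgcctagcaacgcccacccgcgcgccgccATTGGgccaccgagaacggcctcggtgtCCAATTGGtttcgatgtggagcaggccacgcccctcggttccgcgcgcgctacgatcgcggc
Acss2: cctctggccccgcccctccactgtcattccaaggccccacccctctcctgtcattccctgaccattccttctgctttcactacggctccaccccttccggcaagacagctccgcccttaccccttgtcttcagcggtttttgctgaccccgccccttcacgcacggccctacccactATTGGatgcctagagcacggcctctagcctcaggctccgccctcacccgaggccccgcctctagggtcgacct
RefSeq promoters were matched for 27 of the 34 members, with 33 windows in all because some genes have several starts. TCACNCCAC was in 1 of the 33 windows (3.03%), that of Hmgcs1 at 137 to 129 bases before the start, against 1.05% of 32851 windows of the same length over all genes. The SREBP E-box TCACNTGA was in 0 of 33, against 3.46% of all windows. CCAAT was in 22 of 33 (66.7%), against 33.9%, and the GC box GGGCGG in 24 of 33 (72.7%), against 32.7%. A match describes these letters only and was not tested as a binding site.

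Differences among the 4 groups were called in each branch, in the fatty acid genes at a share below that of all genes. The limma F test called 12 of the 17 sterol enzymes (70.6%), 4 of the 5 regulators (80%) and 5 of the 11 fatty acid genes (45.5%). Among all members it called 63.6%, against 54.6% of all genes. Sterol enzymes that missed it were Mvd, Fdft1, Lss, Tm7sf2 and Hsd17b7. In the mean over arrays the R-2HG group was the lowest of the 4 groups for 10 of 17 sterol enzymes and for 5 of 11 fatty acid genes. Empty vector was the highest for 7 sterol enzymes, and IDH1wt for 5 sterol enzymes and 6 fatty acid genes. The order of the groups was not counted over all genes, so these counts do not set the members apart. The map of all members by array shows the low R-2HG columns in Sqle, Dhcr7, Insig1 and Elovl6.

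**Figure D1:**
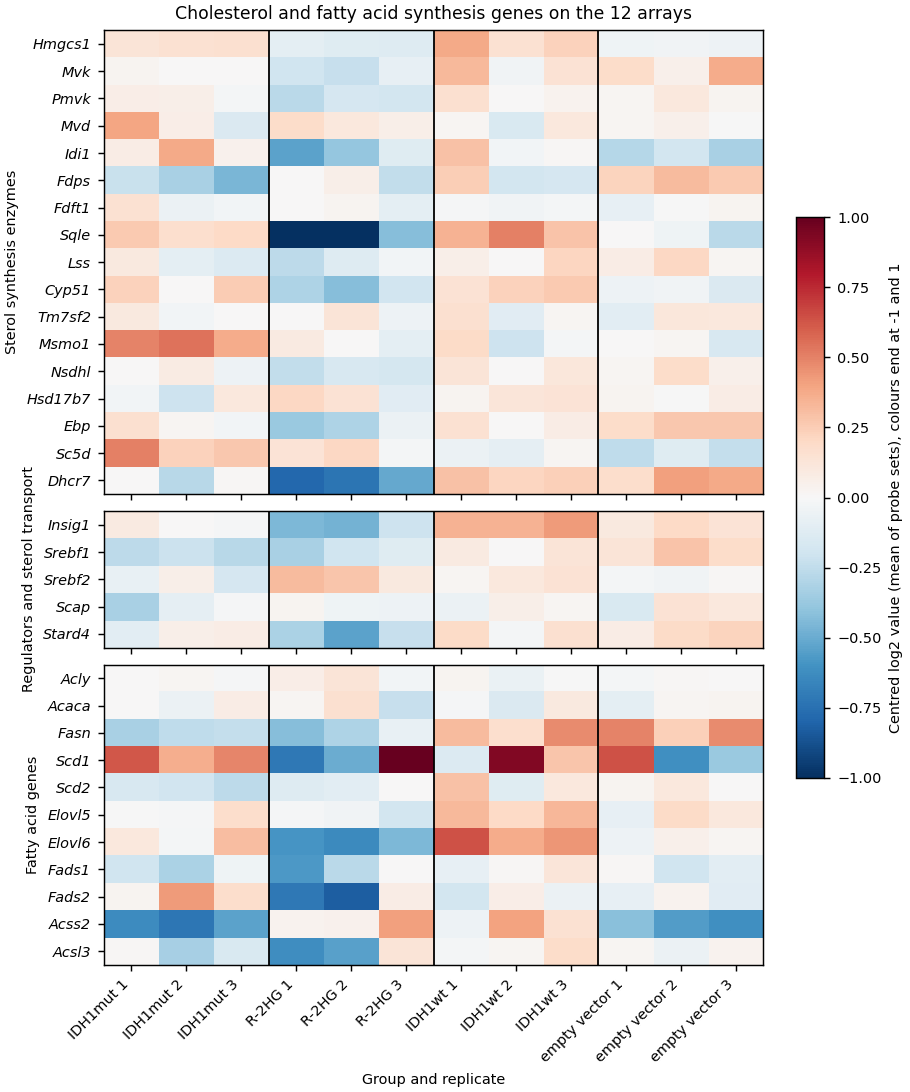
Each row is a gene and each column an array, coloured by the centred log2 value (mean of the gene's probe sets, colours end at -1 and 1). R-2HG replicates 1 and 2 are darkest for Sqle (-1.39 and -1.21), and the values of Scd1 differ within groups from -0.72 to 1.01 in R-2HG.

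R-2HG treatment was set against empty vector cells in untreated recipients to ask what the metabolite did without the mutant enzyme. Sterol synthesis enzymes were lower: limma called 8 of 17 lower and 1 higher, against 24.3% lower and 16.5% higher among all genes (40.8% in either direction). Their median log2 fold change was -0.23, against 0.0030 over all genes. That median was -0.11 after quantile normalization, -0.38 with the probe set of highest SD for each gene, and -0.13 with R-2HG replicate 3 alone. The 8 were spread along the pathway, with 2 of 4 mevalonate genes, 1 of 2 isoprenoid genes, 1 of 3 genes from squalene to lanosterol and 4 of 8 genes from lanosterol to cholesterol.

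Sqle, the squalene epoxidase of the first oxygen-requiring step, had centred log2 values of -1.39, -1.21 and -0.42 in R-2HG, against 0, -0.042 and -0.27 in empty vector. All 3 R-2HG arrays lay below the lowest empty vector array, and replicate 3 lay closest to it. Sqle fell, with a log2 fold change of -0.90 ± 0.19, adjusted p = 0.00314 (SE, n = 3 per group). Dhcr7, the reductase that makes cholesterol from 7-dehydrocholesterol, stood at -0.79, -0.73 and -0.51 in R-2HG, against 0.17, 0.41 and 0.38 in empty vector. The groups were far apart, and Dhcr7 had the smallest p-value of all members in this comparison. Its log2 fold change was -0.996 ± 0.10, adjusted p = 6.96e-05, a 1.99-fold decrease. Ebp, the sterol isomerase, stood at -0.37, -0.31 and -0.062 in R-2HG, against 0.18, 0.27 and 0.27 in empty vector, and fell (-0.49 ± 0.089, adjusted p = 0.00133). Its R-2HG replicate 3 again lay nearest to the control arrays.

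Changes in the other called sterol enzymes were smaller. Mevalonate kinase Mvk had values of -0.20, -0.23 and -0.085 in R-2HG, against 0.19, 0.050 and 0.37 in empty vector, and fell (-0.37 ± 0.10, adjusted p = 0.0117). Phosphomevalonate kinase Pmvk, the next step, fell as well (-0.26 ± 0.068, adjusted p = 0.011), as did the sterol dehydrogenase Nsdhl (-0.28 ± 0.071, adjusted p = 0.009). Fdps, which makes farnesyl diphosphate for both sterols and prenyl groups, had a log2 fold change of -0.33 ± 0.12, adjusted p = 0.045, and the lanosterol demethylase Cyp51 of -0.23 ± 0.086, adjusted p = 0.0467. Both calls stood near the threshold. Cyp51 lost it without any 1 of 9 arrays (adjusted p between 0.0507 and 0.178) and Fdps without any 1 of 6 (adjusted p between 0.0569 and 0.139). Mvk lost it without empty vector replicate 3 (adjusted p = 0.0551) and Pmvk without R-2HG replicate 1 (adjusted p = 0.0518).

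The exception among the called enzymes was Sc5d, the desaturase that makes 7-dehydrocholesterol. It had values of 0.14, 0.20 and -0.019 in R-2HG, against -0.25, -0.12 and -0.23 in empty vector, and rose (0.31 ± 0.088, adjusted p = 0.0153). The call was lost without any 1 of 3 arrays, namely empty vector replicate 3, R-2HG replicate 1 or R-2HG replicate 2 (adjusted p between 0.0517 and 0.068). Hmgcs1, the HMG-CoA synthase whose window holds the TCACNCCAC match, had values of -0.10, -0.12 and -0.13 in R-2HG, against -0.039, -0.032 and -0.049 in empty vector. The groups did not overlap, but the difference did not pass (-0.078 ± 0.067, adjusted p = 0.371). It passed with the Hmgcs1 probe set of highest SD in place of the mean (-0.39, adjusted p = 0.0107). Lanosterol synthase Lss was at -0.24 ± 0.093, adjusted p = 0.0555, and isopentenyl isomerase Idi1 at -0.083 ± 0.13, adjusted p = 0.626. Lss passed in 3 alternatives, array weights among them (adjusted p between 0.00975 and 0.0447), and Idi1 with its probe set of highest SD (-0.38, adjusted p = 0.0295). The remaining sterol enzymes without a call, Mvd, Fdft1, Tm7sf2, Msmo1 and Hsd17b7, had log2 fold changes between -0.012 and 0.092.

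**Figure D2:**
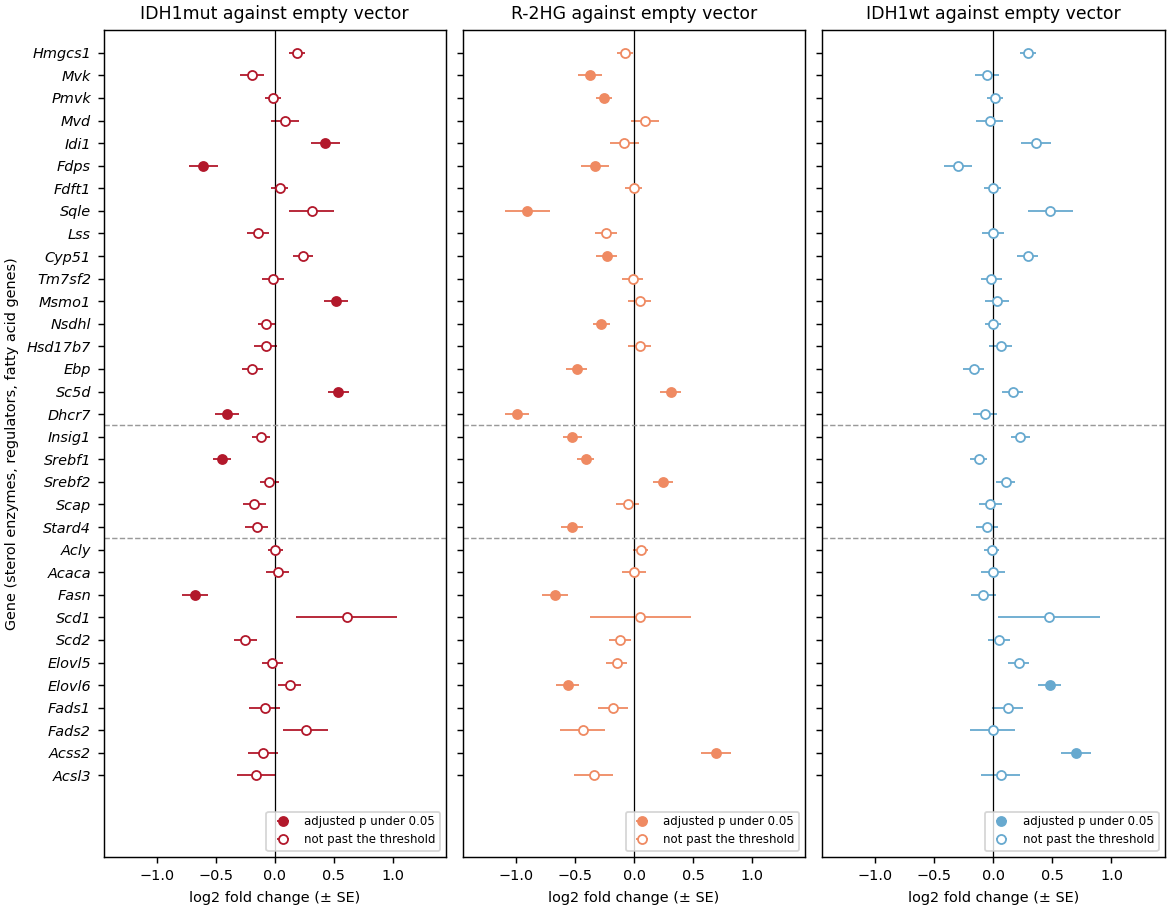
Log2 fold changes of the 33 genes against empty vector (points, bars ± SE, n = 3 per group), filled where the limma adjusted p is under 0.05, with dashed lines between sterol enzymes, regulators and fatty acid genes. The R-2HG panel holds 16 filled points, the IDH1mut panel 7 and the IDH1wt panel 2; the 3 panels share the empty vector arrays.

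Regulators moved with R-2HG in both directions, 3 of 5 lower and 1 higher, against 24.3% lower and 16.5% higher among all genes. Insig1, which retains SCAP in the endoplasmic reticulum and is itself a known SREBP target, had values of -0.45, -0.48 and -0.21 in R-2HG, against 0.10, 0.20 and 0.14 in empty vector. Every R-2HG array lay below every empty vector array, and Insig1 fell, with a log2 fold change of -0.52 ± 0.079, adjusted p = 0.000448. Stard4, a carrier of cholesterol between membranes, stood at -0.32, -0.54 and -0.23 in R-2HG, against 0.076, 0.19 and 0.23 in empty vector, and fell (-0.53 ± 0.095, adjusted p = 0.00124). Srebf1, which encodes SREBP-1, stood at -0.32, -0.20 and -0.12 in R-2HG, against 0.13, 0.28 and 0.18 in empty vector, and fell (-0.41 ± 0.074, adjusted p = 0.00122). Srebf2, which encodes the SREBP most tied to sterol genes, moved the other way. Its values were 0.32, 0.28 and 0.10 in R-2HG, against -0.018, -0.033 and 0.011 in empty vector, a rise of 0.24 ± 0.081, adjusted p = 0.0306, which was lost without any 1 of 5 arrays (adjusted p between 0.0619 and 0.118). The escort gene Scap was at -0.054 ± 0.10, adjusted p = 0.686, and passed with its probe set of highest SD (-0.41, adjusted p = 0.00393).

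Among the fatty acid genes 2 of 11 were lower and 1 higher in R-2HG than in empty vector, a called share of 27.3%, against 40.8% of all genes. Fasn, the fatty acid synthase, had values of -0.42, -0.31 and -0.073 in R-2HG, against 0.50, 0.24 and 0.47 in empty vector. The groups did not overlap and Fasn fell, with a log2 fold change of -0.67 ± 0.11, adjusted p = 0.00063. Elovl6, which elongates palmitate, stood at -0.59, -0.64 and -0.45 in R-2HG, against -0.055, 0.052 and 0.019 in empty vector, and fell (-0.56 ± 0.10, adjusted p = 0.000952). Acss2, which makes acetyl-CoA from acetate in the cytosol and nucleus, stood at 0.035, 0.040 and 0.41 in R-2HG, against -0.42, -0.56 and -0.62 in empty vector. All 3 R-2HG arrays were higher, replicate 3 most of all, and Acss2 rose by 0.69 ± 0.13, adjusted p = 0.00139.

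The entry enzymes of fatty acid synthesis gave no call. ATP citrate lyase Acly was at 0.056 ± 0.063, adjusted p = 0.501 and acetyl-CoA carboxylase Acaca at 0.0014 ± 0.10, adjusted p = 0.992. The stearoyl-CoA desaturase Scd1 had values of -0.72, -0.49 and 1.01 in R-2HG, against 0.63, -0.61 and -0.37 in empty vector. It was low in 2 R-2HG arrays and above every other array of the series in R-2HG replicate 3, so its SE of 0.43 was the widest of all members. The fatty acid desaturase Fads2 and the acyl-CoA synthetase Acsl3 showed the same split of the R-2HG arrays. Fads2 stood at -0.71, -0.82 and 0.073 in R-2HG, against -0.082, 0.036 and -0.11 in empty vector, with a log2 fold change of -0.43 ± 0.19, adjusted p = 0.0881. Acsl3 stood at -0.62, -0.54 and 0.13 in R-2HG, against 0.018, -0.057 and 0.036 in empty vector (-0.34 ± 0.16, adjusted p = 0.112). Without R-2HG replicate 3 they passed, Fads2 at -0.71, adjusted p = 0.000588 and Acsl3 at -0.58, adjusted p = 0.00103, and so did Fads1 at -0.32, adjusted p = 0.0405.

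**Figure D3:**
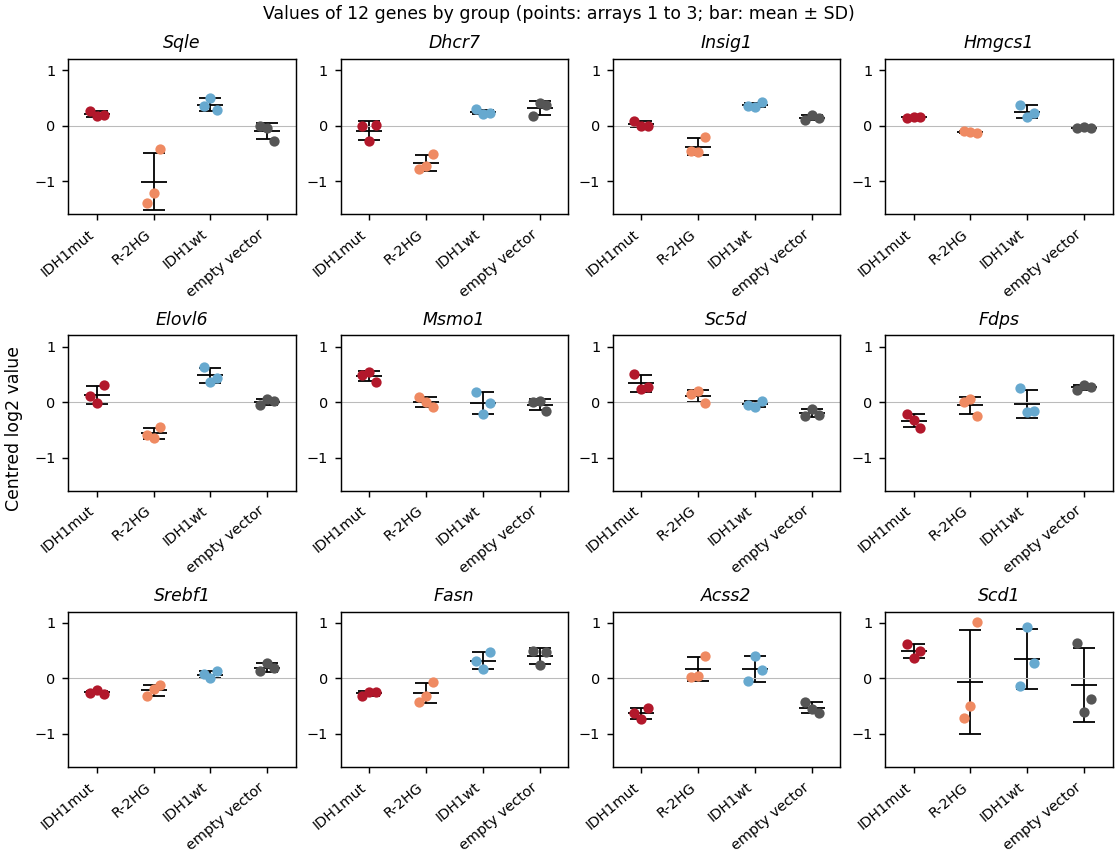
Centred log2 values of 12 genes on each array (points, replicates 1 to 3 from left to right) with the group mean ± SD, all panels on the same axis. Sqle, Dhcr7, Insig1 and Elovl6 are lowest in R-2HG, Msmo1 is highest in IDH1mut, Fasn and Srebf1 are low in IDH1mut and R-2HG, and Acss2 is high in R-2HG and IDH1wt.

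The split of the R-2HG arrays was followed through the members. Of the 13 members called lower against empty vector, 10 had R-2HG replicate 3 nearest to the empty vector mean. For all 13 each of the 3 arrays lay below that mean, but they were called on these same arrays, so this gives no separate support. Over the 33 members, 24, 23 and 24 lay below the empty vector mean in R-2HG replicates 1, 2 and 3, with median differences of -0.27, -0.21 and -0.12. The same count was not made over all genes, so it does not set the members apart. A group of R-2HG replicate 3 alone has no spread of its own, so log2 fold changes are given for this setting. Against empty vector their median was -0.13 in sterol enzymes, -0.32 in regulators and -0.025 in fatty acid genes. Dhcr7 was then at -0.83, Insig1 at -0.35 and Acss2 at 0.94. Sqle was at -0.32, Fasn at -0.48, Elovl6 at -0.45 and Stard4 at -0.40. Leaving out any 1 of the 12 arrays kept 10 of the 16 calls, those of Sqle, Nsdhl, Ebp, Dhcr7, Insig1, Srebf1, Stard4, Fasn, Elovl6 and Acss2.

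Marker genes of other cells and of division moved with the R-2HG group too. Of 9 measured mast cell, basophil and eosinophil markers 4 were lower and 0 higher against empty vector, of 9 B cell markers 4 lower and 0 higher, and of 9 dendritic cell markers 3 lower and 0 higher. Among all genes 24.3% were lower and 16.5% higher. Of 9 monocyte and macrophage markers 3 were lower and 0 higher, of 9 T and NK cell markers 3 lower and 1 higher, and of 9 erythroid markers 0 lower and 1 higher. The median dendritic marker was -0.81 and -1.07 in R-2HG replicates 1 and 2 and 0.44 in replicate 3, against 0 to 0.27 in empty vector. The median B cell marker was -0.64 to -0.25 in R-2HG, against 0 to 1.04 in empty vector. Of 17 measured genes of mitosis and G2/M, 10 were lower and 0 higher, and their median lay between -0.25 and -0.15 in R-2HG, against -0.062 to 0.22 in empty vector. Granulocyte stage markers stood apart on all 3 arrays. Of 6 primary granule markers 0 were higher and 6 lower, with medians of -0.40 to -0.14 in R-2HG, against 0.24 to 0.38 in empty vector, and of 11 mature neutrophil markers 7 were higher and 0 lower, with medians of 0.16 to 0.25 in R-2HG, against -0.18 to -0.057 in empty vector. With R-2HG replicate 3 alone, the median log2 fold change was -0.71 for primary granule and 0.33 for mature neutrophil markers. It was 0.13 for mast cell, basophil and eosinophil markers, -0.62 for B cell and 0.26 for dendritic markers. For genes of mitosis and G2/M it was -0.24. The part of these cells, of stage or of division in the values of the sterol genes was not tested.

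IDH1mut cells were set against empty vector cells to ask what mutant IDH1 did to the same genes. The sterol enzymes went both ways: 3 of 17 were higher and 2 lower, against 10.5% higher and 12.1% lower among all genes (22.6% in either direction), with a median log2 fold change of -0.014. Of the regulators 0 of 5 were higher and 1 lower, and of the fatty acid genes 0 of 11 higher and 1 lower. The median over all genes was -0.047.

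The 3 higher enzymes were Msmo1, Sc5d and Idi1. Msmo1, the methylsterol monooxygenase that starts the removal of the C4 methyl groups, had values of 0.50, 0.54 and 0.37 in IDH1mut, against 0, 0.018 and -0.16 in empty vector. All IDH1mut arrays lay above every array of the other 3 groups, and Msmo1 rose by 0.52 ± 0.10, adjusted p = 0.00356. Sc5d had values of 0.51, 0.23 and 0.27 in IDH1mut, against -0.25, -0.12 and -0.23 in empty vector, and rose (0.54 ± 0.088, adjusted p = 0.00114). It passed at 2 of its 3 probe sets and missed with that of highest SD (0.41, adjusted p = 0.0808). Idi1 stood at 0.073, 0.38 and 0.044 in IDH1mut, against -0.28, -0.19 and -0.32 in empty vector (0.43 ± 0.13, adjusted p = 0.0283). The Idi1 call was lost without any 1 of the empty vector arrays or without IDH1mut replicate 2 (adjusted p between 0.0502 and 0.112).

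The lower members were Fdps, Dhcr7, Srebf1 and Fasn. Fdps had values of -0.22, -0.33 and -0.46 in IDH1mut, against 0.22, 0.32 and 0.26 in empty vector, and fell (-0.60 ± 0.12, adjusted p = 0.0038). Dhcr7 stood at 0, -0.28 and 0.014 in IDH1mut, against 0.17, 0.41 and 0.38 in empty vector, and fell (-0.41 ± 0.10, adjusted p = 0.0127), a call lost without empty vector replicate 2, empty vector replicate 3 or IDH1mut replicate 2 (adjusted p between 0.0526 and 0.054). Srebf1 had a narrow spread, with -0.26, -0.21 and -0.28 in IDH1mut, against 0.13, 0.28 and 0.18 in empty vector, and fell, with a log2 fold change of -0.45 ± 0.074, adjusted p = 0.00116. Fasn stood at -0.32, -0.25 and -0.24 in IDH1mut, against 0.50, 0.24 and 0.47 in empty vector, and fell, with a log2 fold change of -0.67 ± 0.11, adjusted p = 0.000988. Acss2, at -0.63, -0.72 and -0.54 in IDH1mut, lay within reach of the empty vector arrays (-0.10 ± 0.13, adjusted p = 0.626).

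Several members came close without passing. Hmgcs1 was at 0.19 ± 0.067, adjusted p = 0.0634, Cyp51 at 0.24 ± 0.086, adjusted p = 0.0648 and the desaturase Scd2 at -0.25 ± 0.094, adjusted p = 0.0803. Hmgcs1 and Cyp51 passed in 3 alternatives each and Scd2 in 4 (adjusted p between 0.0262 and 0.0485). Sqle had values of 0.26, 0.17 and 0.20 in IDH1mut, all above the empty vector arrays, at a log2 fold change of 0.31 ± 0.19, adjusted p = 0.273. The same log2 fold change passed with only the 6 arrays of these 2 groups (adjusted p = 0.0385), and likewise with R-2HG replicate 3 left out (adjusted p = 0.0259), since the fit over 12 arrays shares 1 spread per gene across all groups. Insig1 was at -0.12 ± 0.079, adjusted p = 0.322, Stard4 at -0.15 ± 0.095, adjusted p = 0.278 and Srebf2 at -0.047 ± 0.081, adjusted p = 0.729. Scap, at -0.17 ± 0.10, adjusted p = 0.234, passed with its probe set of highest SD (-0.46, adjusted p = 0.00372). Markers of granulocyte stage moved in the same arrays: of 11 mature neutrophil markers 7 were higher and 0 lower, and of 6 primary granule markers 0 were higher and 5 lower. Among all genes 10.5% were higher and 12.1% lower. Of 9 monocyte and macrophage markers 0 were higher and 5 lower, and of 9 mast cell, basophil and eosinophil markers 0 higher and 2 lower. Of 9 erythroid markers 3 were higher and 0 lower, and of 9 B cell markers 3 higher and 0 lower. Of 9 T and NK cell markers 2 were higher and 1 lower, of 9 dendritic markers 1 higher and 1 lower, and of 17 genes of mitosis and G2/M 0 either way. The median erythroid marker was 0.15 to 0.39 in IDH1mut, against -0.70 to -0.55 in empty vector. Their part in the values of the synthesis genes was not tested.

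IDH1wt against empty vector gave few calls, both over all genes, of which 1.35% were called (0.788% higher and 0.561% lower), and among the members. None of the 17 sterol enzymes and none of the 5 regulators passed in limma, with 5 and 1 at an unadjusted p under 0.05, and 2 of 11 fatty acid genes were higher. Acss2 had values of -0.054, 0.41 and 0.15 in IDH1wt, against -0.42, -0.56 and -0.62 in empty vector, and rose by 0.70 ± 0.13, adjusted p = 0.0195. Elovl6 stood at 0.63, 0.37 and 0.44 in IDH1wt, against -0.055, 0.052 and 0.019 in empty vector, and rose by 0.47 ± 0.10, adjusted p = 0.0377. The groups did not overlap for either gene. The Acss2 call was lost without empty vector replicate 2 or 3 or IDH1wt replicate 2 or 3 (adjusted p between 0.07 and 0.102), and the Elovl6 call without any 1 of 8 arrays (adjusted p between 0.0518 and 0.131). Elovl6 passed at 1 of its 3 probe sets and missed with that of highest SD (0.29, adjusted p = 0.361). The sterol enzymes nearest to a call were Hmgcs1 (0.29 ± 0.067, adjusted p = 0.0565), Cyp51 (0.29 ± 0.086, adjusted p = 0.12) and Idi1 (0.36 ± 0.13, adjusted p = 0.186), all higher on every IDH1wt array than on any empty vector array. Sqle, at 0.48 ± 0.19, adjusted p = 0.241, passed in 4 alternatives (adjusted p between 0.0195 and 0.0411). Insig1 was at 0.23 ± 0.079, adjusted p = 0.181. Markers of other cells varied among the IDH1wt arrays. The median mast cell, basophil and eosinophil marker was 0, 1.22 and 0.55 in IDH1wt replicates 1 to 3, against 0.14 to 0.25 in empty vector, and the median dendritic marker 0.20, 0.74 and 0.49, against 0 to 0.27 in empty vector. The median erythroid marker was -0.77, 0.33 and -0.15 in IDH1wt, against -0.70 to -0.55 in empty vector. None of these 27 markers passed (0 higher and 0 lower in limma, with 2 at an unadjusted p under 0.05), and their part in the values of Acss2 and Elovl6 was not tested.

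IDH1mut was also set against IDH1wt, in which both groups carried an IDH1 vector. Of the sterol enzymes 2 of 17 were higher and 1 lower, of the regulators 2 of 5 lower and of the fatty acid genes 3 of 11 lower, against 8.37% higher and 7.29% lower among all genes (15.7% in either direction). Msmo1, with 0.50, 0.54 and 0.37 in IDH1mut, against 0.19, -0.21 and -0.022 in IDH1wt, was higher in the mutant (0.48 ± 0.10, adjusted p = 0.00778), as was Sc5d (0.38 ± 0.088, adjusted p = 0.0134). Insig1 stood at 0.093, 0 and -0.011 in IDH1mut, against 0.35, 0.35 and 0.42 in IDH1wt, and was lower (-0.35 ± 0.079, adjusted p = 0.012). Fasn stood at -0.32, -0.25 and -0.24 in IDH1mut, against 0.31, 0.16 and 0.47 in IDH1wt, and was lower (-0.59 ± 0.11, adjusted p = 0.00389). The widest gap was that of Acss2, with -0.63, -0.72 and -0.54 in IDH1mut, against -0.054, 0.41 and 0.15 in IDH1wt (-0.80 ± 0.13, adjusted p = 0.00174). Those 5 calls held without any 1 array. Sc5d, however, passed at 1 of its 3 probe sets and missed with that of highest SD (0.48, adjusted p = 0.0602). Srebf1 (-0.32 ± 0.074, adjusted p = 0.0118) was lost without IDH1wt replicate 3 (adjusted p = 0.0505), Elovl6 (-0.35 ± 0.10, adjusted p = 0.0309) without any 1 of 4 arrays (adjusted p between 0.0651 and 0.119), and Dhcr7 (-0.34 ± 0.10, adjusted p = 0.0428) without any 1 of 8 arrays (adjusted p between 0.0513 and 0.16). Elovl6 passed at 1 of its 3 probe sets and missed with that of highest SD (-0.16, adjusted p = 0.559). Fdps, called against empty vector, was at -0.30 ± 0.12, adjusted p = 0.114 here. Of 17 genes of mitosis and G2/M and of 9 erythroid markers 0 were called. Higher and lower counts were 8 and 0 of 11 mature neutrophil, 0 and 5 of 6 primary granule, and 0 and 6 of 9 monocyte and macrophage markers. They were 0 and 2 of 9 mast cell, basophil and eosinophil, and 1 and 2 of 9 dendritic markers. They were 3 and 0 of 9 B cell and 3 and 1 of 9 T and NK cell markers. Their part was not tested.

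In R-2HG against IDH1wt the called sterol enzymes were lower, with 0 of 17 higher and 9 lower, against 21.4% higher and 23.0% lower among all genes (44.4% in either direction), with a median of -0.27. Sqle, at -1.39, -1.21 and -0.42 in R-2HG, against 0.35, 0.51 and 0.28 in IDH1wt, showed the widest gap of all members (-1.39 ± 0.19, adjusted p = 0.000324), a 2.61-fold decrease. Elovl6, at -0.59, -0.64 and -0.45 in R-2HG, against 0.63, 0.37 and 0.44 in IDH1wt, was 2.06-fold lower (-1.04 ± 0.10, adjusted p = 5.83e-05). Insig1 had a log2 fold change of -0.75 ± 0.079, adjusted p = 0.000103, Dhcr7 of -0.92 ± 0.10, adjusted p = 0.000114 and Cyp51 of -0.52 ± 0.086, adjusted p = 0.000775. Hmgcs1, which missed the threshold against empty vector, stood at -0.10, -0.12 and -0.13 in R-2HG, against 0.38, 0.16 and 0.23 in IDH1wt, and passed (-0.37 ± 0.067, adjusted p = 0.0013). The elongase Elovl5, at -0.15 ± 0.089, adjusted p = 0.207 against empty vector, passed against IDH1wt (-0.36 ± 0.089, adjusted p = 0.00724). Mvk, Pmvk, Idi1, Nsdhl, Ebp, Srebf1, Stard4 and Fasn were called lower with log2 fold changes between -0.59 and -0.27. Idi1 lost its call without IDH1wt replicate 1 or R-2HG replicate 1, Ebp without R-2HG replicate 1 or 2, and Mvk without any 1 of 4 arrays. Acss2, high in both groups, differed by -0.0063 ± 0.13, adjusted p = 0.973. With R-2HG replicate 3 alone, the medians were -0.21 in sterol enzymes, -0.19 in regulators and -0.011 in fatty acid genes. With all arrays, 11 of 17 genes of mitosis and G2/M were lower and 0 higher. Lower and higher counts were 6 and 0 of 9 mast cell, basophil and eosinophil, and 5 and 0 of 9 dendritic markers. They were 5 and 0 of 9 monocyte and macrophage, 4 and 0 of 6 primary granule, and 0 and 7 of 11 mature neutrophil markers. They were 1 and 0 of 9 B cell, 0 and 0 of 9 erythroid, and 3 and 3 of 9 T and NK cell markers. Their part was not tested.

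Whether mutant IDH1 and R-2HG treatment left the pathway at different values was tested by setting IDH1mut against R-2HG directly. Sterol enzymes were higher in IDH1mut for 9 of 17 and lower for 0, against 20.3% higher and 15.8% lower among all genes (36.0% in either direction), with a median of 0.23. Sqle, with 0.26, 0.17 and 0.20 in IDH1mut, against -1.39, -1.21 and -0.42 in R-2HG, differed by 1.22 ± 0.19, adjusted p = 0.00153. Dhcr7, called lower against empty vector in both groups, was higher in IDH1mut than in R-2HG, with 0, -0.28 and 0.014 in IDH1mut, against -0.79, -0.73 and -0.51 in R-2HG (0.59 ± 0.10, adjusted p = 0.00227). Idi1 (0.51 ± 0.13, adjusted p = 0.0102), Cyp51 (0.47 ± 0.086, adjusted p = 0.00271), Msmo1 (0.47 ± 0.10, adjusted p = 0.0056) and Hmgcs1 (0.27 ± 0.067, adjusted p = 0.0111) were higher as well, and these 6 calls held without any 1 array. Ebp, Pmvk and Nsdhl were higher by 0.30, 0.24 and 0.21, and lost their calls without any 1 of 3, 2 and 7 arrays. With R-2HG replicate 3 alone, the medians were 0.19 in sterol enzymes, -0.094 in regulators and -0.19 in fatty acid genes. Sqle was then at 0.63 and Acss2 at -1.04. With all arrays, 9 of 17 genes of mitosis and G2/M were higher and 0 lower. Higher and lower counts were 8 and 0 of 9 B cell, 7 and 0 of 9 erythroid and 2 and 0 of 9 dendritic markers. They were 1 and 0 of 9 mast cell, basophil and eosinophil, and 3 and 1 of 9 T and NK cell markers. They were 2 and 0 of 11 mature neutrophil, 1 and 4 of 6 primary granule, and 0 and 2 of 9 monocyte and macrophage markers. Their part in these differences was not tested.

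The regulators and the fatty acid genes gave further differences between IDH1mut and R-2HG. Insig1 (0.41 ± 0.079, adjusted p = 0.00371) and Stard4 (0.37 ± 0.095, adjusted p = 0.0118) were higher in IDH1mut and Srebf2 lower (-0.29 ± 0.081, adjusted p = 0.017). Stard4 lost its call without R-2HG replicate 2 (adjusted p = 0.0554), and Srebf2 without IDH1mut replicate 3, R-2HG replicate 1 or R-2HG replicate 2 (adjusted p between 0.0596 and 0.0714). Elovl6 stood at 0.11, -0.018 and 0.30 in IDH1mut, against -0.59, -0.64 and -0.45 in R-2HG, and was higher (0.69 ± 0.10, adjusted p = 0.000973). Acss2 stood at -0.63, -0.72 and -0.54 in IDH1mut, against 0.035, 0.040 and 0.41 in R-2HG, and was lower (-0.79 ± 0.13, adjusted p = 0.00168). Fads2 was higher in IDH1mut (0.70 ± 0.19, adjusted p = 0.016) although the arrays of the 2 groups overlapped, with 0.026, 0.43 and 0.18 in IDH1mut, against -0.71, -0.82 and 0.073 in R-2HG. Its call was lost without IDH1mut replicate 2, R-2HG replicate 1 or R-2HG replicate 2 (adjusted p between 0.0595 and 0.0715). Fasn and Srebf1, lower in both groups than in empty vector, differed by -0.0026 ± 0.11 (adjusted p = 0.988) and -0.039 ± 0.074 (adjusted p = 0.7), which does not show that they were equal.

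**Figure D4:**
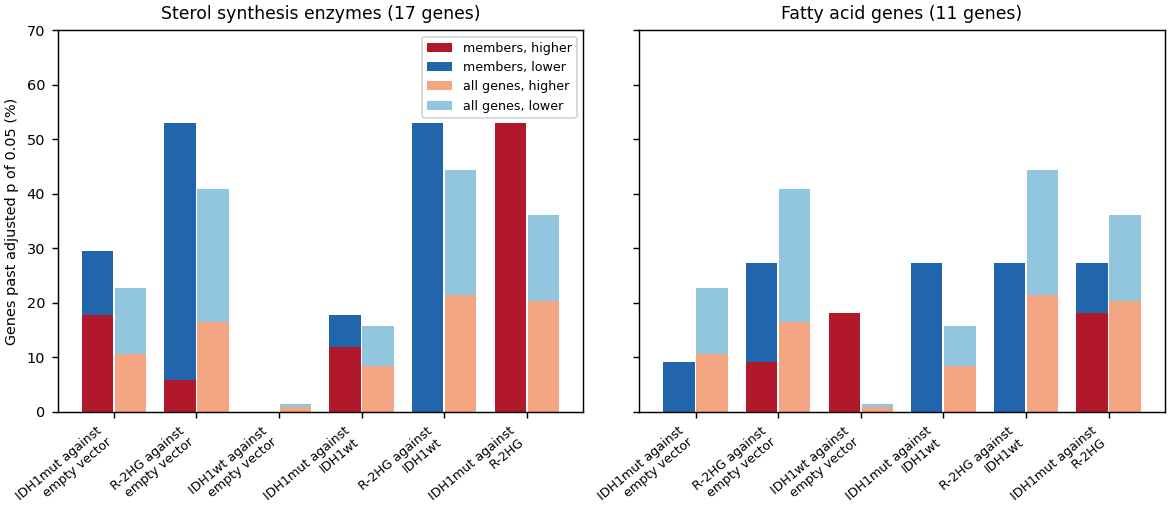
Share of genes past the limma threshold in each comparison, for the 17 sterol enzymes (left) and the 11 fatty acid genes (right), with all 15858 genes beside them and higher and lower calls stacked. In R-2HG 8 of 17 sterol enzymes are lower against empty vector and 9 of 17 against IDH1wt, beside 24.3% and 23.0% of all genes.

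Comparisons with the same control arrays are not independent, so members were matched only between comparisons that share no array. Such comparisons still come from the same fit, which shares the spread of a gene across all groups. Their calls are therefore not independent tests either. IDH1mut against IDH1wt called 8 members and R-2HG against empty vector 16, and 7 were called in both, which is 87.5% of the first list and 43.8% of the second. Of these, Dhcr7, Elovl6, Fasn, Insig1 and Srebf1 were lower and Sc5d higher in both, whereas Acss2 was lower in IDH1mut and higher in R-2HG. Over all genes 1498 were called in both, 60.3% of the first list and 23.1% of the second, 1442 of them in the same direction. In the other such pair, IDH1mut against empty vector with 7 calls and R-2HG against IDH1wt with 15, 4 members were shared (57.1% and 26.7%). Dhcr7, Fasn and Srebf1 were lower in both, and Idi1 was higher in IDH1mut and lower in R-2HG. Over all genes 1833 were shared (51.2% and 26.1%), 1590 of them in the same direction. With R-2HG replicate 3 alone against empty vector, the 7 were at -0.83 (Dhcr7), -0.45 (Elovl6), -0.48 (Fasn), -0.35 (Insig1), -0.32 (Srebf1), 0.18 (Sc5d) and 0.94 (Acss2). Against IDH1wt the 4 were at -0.76 (Dhcr7), -0.39 (Fasn), -0.19 (Srebf1) and -0.21 (Idi1).

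Of the 33 members 21 had several probe sets, and for 4 of them, Fdft1, Hsd17b7, Fads1 and Acaca, probe sets of the same gene were called in opposite directions in at least 1 comparison. Fdft1, the squalene synthase, had 4. In R-2HG against empty vector 1438322_x_at and 1448130_at were lower (-0.53 ± 0.10, adjusted p = 0.0015, and -0.36 ± 0.093, adjusted p = 0.00899), and 1438918_at and 1438919_x_at were higher (0.37 ± 0.10, adjusted p = 0.0153, and 0.51 ± 0.12, adjusted p = 0.00539). Their mean, at -0.0043 ± 0.073, therefore hid movements of 0.36 to 0.53 on the log2 scale. Fads1 was lower at 1423680_at (-0.80 ± 0.19, adjusted p = 0.00587) and at 0.44 ± 0.18, adjusted p = 0.0716 at 1440444_at. Hsd17b7, the reductase of C4 demethylation, was higher at 1417871_at (0.37 ± 0.13, adjusted p = 0.0369) and lower at 1457248_x_at (-0.52 ± 0.15, adjusted p = 0.0146). With the probe set of highest SD, Sc5d was higher in R-2HG than in IDH1wt (0.73, adjusted p = 0.00294), against 0.15 ± 0.088, adjusted p = 0.191 for the mean of its probe sets. Of the 3 probe sets of Cyp51, 1 passed (-0.65 ± 0.15, adjusted p = 0.0056, at 1422533_at), and 1422534_at was at 0.23 ± 0.17, adjusted p = 0.302. Sqle, Dhcr7, Insig1, Fasn, Srebf1, Msmo1 and Fdps each rested on 1 probe set. All 3 probe sets of Acss2 passed in R-2HG against empty vector and in IDH1mut against IDH1wt.

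**Figure D5:**
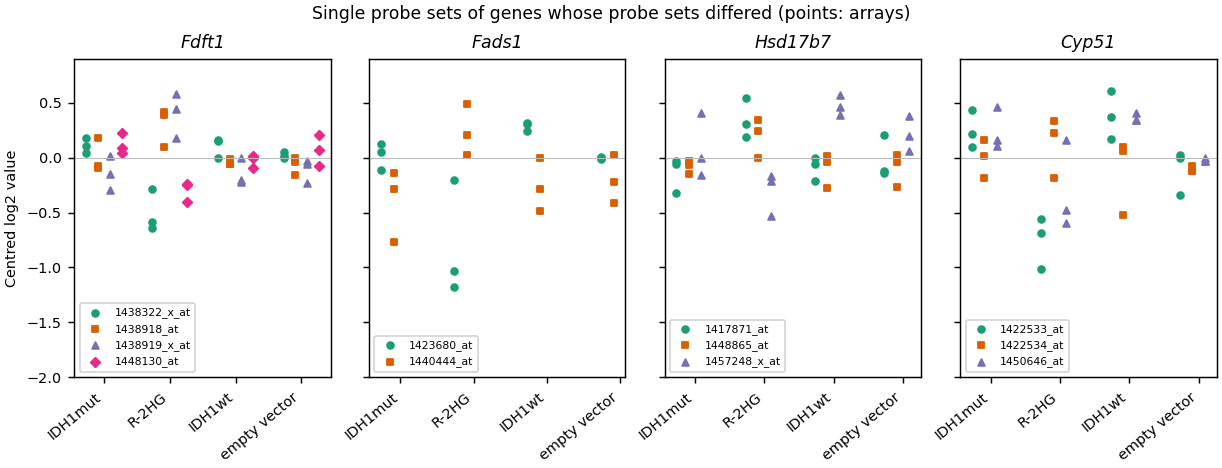
Centred log2 values of the single probe sets of Fdft1, Fads1, Hsd17b7 and Cyp51 on each array (marker shape and colour by probe set). In R-2HG the probe sets of Fdft1 separate into 2 above 0 and 2 below 0, whereas in the other groups they overlap.

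Other genes around the pathway were read from 4 lists. The isoprenoid branch, which takes farnesyl diphosphate into prenylation, dolichol and ubiquinone, had lower calls in R-2HG. Against empty vector 7 of 9 measured genes were lower and 0 higher, beside 24.3% and 16.5% of all genes, with a median of -0.32, among them Nus1 of dolichol synthesis (-0.34 ± 0.065, adjusted p = 0.00167) and Pdss2 of ubiquinone synthesis (-0.43 ± 0.083, adjusted p = 0.00194). Against IDH1wt 8 were lower and 0 higher, beside 23.0% and 21.4% of all genes. In IDH1mut against R-2HG 8 were higher and 0 lower, beside 20.3% and 15.8% of all genes. Among these 8 was the farnesyltransferase subunit Fntb (0.56 ± 0.090, adjusted p = 0.00179). In IDH1mut against empty vector 1 of 9 passed, beside 22.6% of all genes, the methyltransferase Icmt (0.35 ± 0.079, adjusted p = 0.00746). R-2HG replicate 3 alone, a setting added for these lists after the data were seen, gave medians of -0.23 against empty vector and -0.30 against IDH1wt. The median of IDH1mut against R-2HG was then 0.27.

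Fatty acid oxidation genes break down what the synthetic branch makes. In R-2HG against empty vector 9 of 15 were lower and 0 higher, beside 24.3% and 16.5% of all genes, with a median of -0.39, including Hadh (-0.88 ± 0.10, adjusted p = 0.000115) and Eci1 (-0.80 ± 0.10, adjusted p = 0.00018). In IDH1mut against empty vector 6 of 15 were lower, 0 higher and 9 not called, beside 12.1% lower and 10.5% higher among all genes, including the short-chain dehydrogenase Acads (-0.79 ± 0.091, adjusted p = 0.000129) and the thiolase Acaa2 (-0.65 ± 0.095, adjusted p = 0.000569). Against IDH1wt 5 were lower in IDH1mut, beside 7.29% of all genes, and 10 in R-2HG, beside 23.0%, with 0 higher in either. In the fit with R-2HG replicate 3 alone the medians were -0.39 against empty vector and -0.26 against IDH1wt.

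Among 17 other genes of the SREBP pathway and of lipid synthesis, 3 were higher and 1 lower in IDH1mut and 3 higher and 6 lower in R-2HG, each against empty vector. Called shares were thus 23.5% in IDH1mut, near the 22.6% of all genes, and 52.9% in R-2HG, beside 40.8%. R-2HG replicate 3 alone gave a median log2 fold change of -0.024 against empty vector, in place of -0.17 with all R-2HG arrays. Dgat1, which closes triglyceride synthesis, was higher in IDH1mut (0.67 ± 0.072, adjusted p = 8.51e-05) and in R-2HG (0.59 ± 0.072, adjusted p = 0.000155). Elovl1, an elongase of very long chains, was higher in IDH1mut (0.30 ± 0.067, adjusted p = 0.00671), and the elongase Elovl7 was lower in R-2HG (-1.29 ± 0.19, adjusted p = 0.000348). Of 10 genes of sterol storage, export and the LXR response, 2 were higher and 0 lower in IDH1mut and 1 higher and 0 lower in R-2HG, called shares of 20% and 10% beside 22.6% and 40.8% of all genes. With R-2HG replicate 3 alone the median log2 fold change of these 10 genes against empty vector was -0.18. Mylip, an LXR target that degrades lipoprotein receptors, was higher in IDH1mut (0.87 ± 0.090, adjusted p = 7.42e-05) and in R-2HG (0.46 ± 0.090, adjusted p = 0.00196), and the cholesteryl ester hydrolase Nceh1 in IDH1mut (0.34 ± 0.10, adjusted p = 0.0263). In IDH1wt against empty vector 0 of the 51 genes in these 4 lists passed in limma, beside 1.35% of all genes, with 12 at an unadjusted p under 0.05.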

How the data were processed

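Per the submitters' processing notes, the authors used RMA, with no version named, to make the 1 deposited table of log2 values for 32533 probe sets on 12 arrays. These log2 values lie between -6.48 and 4.93 and are centred per probe set: at most 7 of 12 values are above 0 and at most 7 below, an exact 0 occurs in 83.6% of probe sets, and the median of every array is 0. What they were centred on, and any scan date or batch, is not given in the sources used here. No value column was left out (0 of 12). The number of arrays limits the precision.

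Gene names came from the array's annotation table, which lists 1 symbol for 28805 probe sets, more than 1 for 757 and no symbol for 2971. Work went on with those of 1 symbol, and 28674 of them had an Entrez identifier in the RefSeq gene table (GRCm38.p6), with 0 symbols changed. Averaging the probe sets of a gene gave 15858 genes. The model had a coefficient for each group and was run in limma 3.58.1 under R 4.3.3 (lmFit, then eBayes, with residual df 8 and prior df 3.96), and p-values were adjusted over all genes by Benjamini-Hochberg. SEs beside log2 fold changes are those of this fit, n = 3 per group. When tested on simulated data for R-2HG against empty vector (15858 genes), the fit found 49.3%, 94% and 100% of log2 changes of 0.5, 1 and 2, and called 0.051% of unchanged genes. The simulation drew normal noise and changed a far smaller share of genes than the 40.8% called in the data. Its rates therefore need not hold for the real comparison.

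The members, the 4 pathway lists and the marker lists were chosen with earlier results of these data known. All members are named, and of each pathway list at most the 2 genes with the smallest p past the threshold in a comparison. Figures were drawn with matplotlib 3.10.9 in Python 3.11.15. Alternatives were quantile normalization, the probe set with the highest SD, single probe sets, an SD filter, robust eBayes, array weights, a replicate block, fits of 6 arrays and arrays left out.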

Additional observations from a re-analysis of the deposited data

How the results depend on the processing

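Counts of called sterol enzymes and fatty acid genes were recomputed under each alternative, of which 246 stayed within 1.5 times the main count and 46 moved further. For each change below the cause was not tested, except that R-2HG replicate 3 alone leaves fewer arrays. Leaving out 1 array at a time gave these ranges of sterol enzymes and fatty acid genes: 3 to 7 and 1 to 2 in IDH1mut against empty vector, 5 to 9 and 3 to 6 in R-2HG against empty vector, 0 to 1 and 0 to 2 in IDH1wt against empty vector, 2 to 3 and 2 to 4 in IDH1mut against IDH1wt, 6 to 10 and 3 to 7 in R-2HG against IDH1wt, 6 to 10 and 2 to 5 in IDH1mut against R-2HG, and 9 to 12 and 3 to 6 in the F test. The replicate numbers did not pair the arrays: same-numbered arrays correlated between -0.15 and 0.12 in their deviations from group means (18 pairs), and differently numbered ones between -0.18 and 0.17 (36 pairs). With the replicate number as a block, IDH1wt against empty vector called 1 fatty acid gene in place of 2, and the other counts stayed within 1.5 times, such as 8 sterol enzymes in R-2HG against empty vector.

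Without R-2HG replicates 1 and 2 the sterol enzymes had median log2 fold changes of -0.13 in R-2HG against empty vector and -0.21 against IDH1wt. In IDH1mut against R-2HG their median was 0.19. The fatty acid genes had medians of -0.025, -0.011 and -0.19 in these comparisons. Array weights gave R-2HG replicate 3 a weight of 0.337. They called 4 sterol enzymes in IDH1wt against empty vector, and 2, 6, 5, 8, 5 and 9 fatty acid genes in IDH1mut against empty vector, in R-2HG against empty vector, in IDH1mut against IDH1wt, in R-2HG against IDH1wt, in IDH1mut against R-2HG and in the F test. Quantile normalization called 8 sterol enzymes in IDH1mut and 2 in IDH1wt against empty vector. The probe set with the highest SD called 1 fatty acid gene in IDH1wt against empty vector, 1 sterol enzyme in IDH1mut against IDH1wt and 7 fatty acid genes in R-2HG against IDH1wt. Single probe sets called 5, 6 and 8 fatty acid genes in R-2HG against empty vector, R-2HG against IDH1wt and the F test, and fits of 6 arrays 2 in IDH1mut against empty vector. The F test was not run on 6 arrays.

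Of 240 recomputed median log2 fold changes of the sterol enzymes and fatty acid genes, 20 moved by more than the replicate SD. For the sterol enzymes the SD filter, which tests fewer genes, gave 0.21 in place of -0.014 in IDH1mut against empty vector and 0.38 in place of 0.23 in IDH1mut against R-2HG. For the fatty acid genes R-2HG replicate 3 alone gave -0.19 in place of 0.093 in IDH1mut against R-2HG. A gene not called by the mean of its probe sets passed in 1 or more of these settings in 38 cases, such as Scap, Hmgcs1 and Idi1 in R-2HG against empty vector with the probe set of highest SD.

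Changes of direction were counted only where the main value or the alternative was called. Uncalled ones, such as Acsl3 (0.13) and Fads2 (0.13) against empty vector with R-2HG replicate 3 alone, were left out. By this count 17 values for single genes changed direction, all by choice of probe set. Of these 14 were single probe sets, and 3 were values of the same probe sets counted again under the setting with the highest SD. In R-2HG against empty vector these were Fdft1 (0.37 and 0.51), Cyp51 (0.23) and Hsd17b7 (-0.52 at the probe set with the highest SD, which is 1457248_x_at). In R-2HG against IDH1wt they were Fdft1 (-0.61 at the probe set with the highest SD, and -0.27), Cyp51 (0.24), Hsd17b7 (0.44), Acaca (-0.39 at the probe set with the highest SD) and Fads1 (0.50). In IDH1mut against R-2HG they were Fdft1 (-0.30 and -0.54), Cyp51 (-0.13) and Fads1 (-0.64). Beside the single probe sets, calls that held in all 20 settings were Fasn, Fdps, Msmo1 and Srebf1 in IDH1mut and Acss2, Dhcr7 and Insig1 in R-2HG, each against empty vector.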
